A study of Mus musculus with 4 samples.

Results

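The genes of the major histocompatibility complex (MHC) and their partners in antigen presentation were examined in reconstituted ovaries (rOvaries) of mice given INK128, an inhibitor of the kinase mTOR, and of untreated controls. All gene symbols of the count table that start with H2- were taken, apart from 4 names with the pseudogene ending -ps, together with B2m, Tap1, Tap2, Tapbp, Cd74, Ciita and Nlrc5. This gave 48 of 54021 symbols. The rule uses names only, and the set was chosen with earlier results of these data known. They comprised 2 classical class I genes, 27 nonclassical class I genes, 5 genes of the class I machinery, 4 class II chains, 5 class II accessory chains, 2 genes of the class II machinery and 3 further H2- symbols, which are described last but counted in the totals. Leaving out the -ps names did not remove every pseudogene. GENCODE lists 5 of the nonclassical genes as pseudogenes in the reference strain C57BL/6J, namely H2-Q5, H2-T10 and H2-Bl (polymorphic pseudogenes), H2-K2 and H2-Q3, and also lists H2-Pa and H2-Pb of the further symbols.

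An rOvary forms when primordial germ cells are mixed with the somatic cells of fetal gonads and the aggregate is grafted under the kidney capsule of a recipient without ovaries. Here the donor cells came from C57BL/6 fetuses carrying actin-GFP, and the recipients were second generation Terc-deficient females (G2 Terc-/-) on the C57BL/6 background, on average 10 weeks old at grafting. RNA-seq counts of 4 libraries were analysed, made from rOvaries collected 1 month after transplantation. Of these, 2 came from recipients with INK128 in the drinking water (replicates 1 and 2, 0.75 uM per g according to the labels, whereas the methods of the study give the dose differently, per volume of water) and 2 from controls (replicates 1 and 3). Terc encodes the RNA of telomerase, and its deletion was shared by both groups, so no recipient had an intact telomerase. Donor and recipient cells carry the same MHC haplotype, and the counts do not tell them apart. The labels do not say how many grafts or mice each library holds, so the p-values measure the spread between these libraries.

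Class I molecules consist of a heavy chain and the light chain B2m and display peptides of the cytosol on nearly all nucleated cells, after Tap1 and Tap2 have pumped the peptides into the endoplasmic reticulum. Class II molecules are pairs of an alpha and a beta chain that assemble on the invariant chain Cd74 and display peptides of the endosomes, mainly on dendritic cells, macrophages and B cells. Nlrc5 drives transcription of the class I genes and Ciita that of the class II genes, both through proteins already bound to the X and Y boxes of the promoters. In the ovary, macrophages are found in the stroma, around follicles and in corpora lutea.

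Stretches of promoters are shown because the X and Y boxes are what class I and class II genes have in common. RefSeq (GRCm38.p6, the assembly called mm10) gave a promoter for 34 of the 48 genes, reaching from 250 bases before to 50 bases after the start. The letters CCAAT, or ATTGG on the other strand, form the core of the Y box, and TGACG is part of many X2 boxes. In the lines below, which run 5′ to 3′ along the transcribed strand, the capitals mark TGACG or TGATG and the ATTGG that follows it.
H2-K1, chr17:34000349-34000398, minus strand: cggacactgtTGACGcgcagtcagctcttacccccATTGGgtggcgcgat
H2-D1, chr17:35262983-35263032, plus strand: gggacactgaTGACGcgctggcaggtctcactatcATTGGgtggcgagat
B2m, chr2:122147599-122147648, plus strand: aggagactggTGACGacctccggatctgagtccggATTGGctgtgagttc
H2-Aa, chr17:34287857-34287906, minus strand: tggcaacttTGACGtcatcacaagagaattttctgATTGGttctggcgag
H2-Eb1, chr17:34305773-34305822, plus strand: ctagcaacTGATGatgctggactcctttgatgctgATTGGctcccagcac
H2-DMb1, chr17:34153095-34153144, plus strand: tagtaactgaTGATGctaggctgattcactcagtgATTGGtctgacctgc
H2-Ke6, chr17:34028071-34028120, minus strand: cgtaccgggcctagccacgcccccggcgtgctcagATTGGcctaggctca
The last line, H2-Ke6, holds ATTGG without either of the other runs and is shown for contrast, since this H2- symbol does not encode an MHC molecule.

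CCAAT was found on either strand in 31 of the 34 promoters (91.2%), against 41.1% of 27025 genes with a promoter. TGACG was found in 14 (41.2%, against 23% of all genes), and a pair of GAAA runs with 2 bases between them, the letters of an interferon response element, in 3 (8.8%, against 3.99%). A pair search, chosen after these sequences were seen, looked on both strands for TGANG followed by ATTGG with 24 to 27 bases between their first letters. That pair was present in 11 of the 34 promoters (32.4%) and in 1.35% of all genes. The 11 were H2-K1, H2-D1, B2m, H2-M3, H2-Q6, H2-Q7, H2-Aa, H2-Eb1, H2-Eb2, H2-DMb1 and H2-DMb2. The TGACG and TGANG searches overlap, and a match is a description of the letters only.

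Counts summed to between 19130209 and 23029089 per library and were expressed as CPM, that is, scaled to the library size with TMM factors. At this depth 3 counts correspond to 0.127 to 0.161 CPM, a floor that covers counting error only. The INK128 libraries resembled each other, with a Pearson correlation of 0.98 across genes, whereas the controls gave 0.806. The controls stood apart from each other in several marker lists. In control replicate 3 the 9 oocyte markers (such as Ddx4, Gdf9 and Zp3) summed to 25.4 CPM, against 760 CPM in control replicate 1 and 1050 and 775 CPM with INK128. The 8 granulosa cell markers were present in every library, between 3120 and 7710 CPM. The 5 markers of steroidogenic cells summed to only 729 CPM in control replicate 1, against 10600 CPM in control replicate 3 and 3750 and 4950 CPM with INK128, and Cyp11a1 among them had 70.6, 4030, 879 and 1160 CPM in the same order. Markers of the kidney, the organ that carries the graft, summed to 124 and 216 CPM with INK128 and to 694 and 1600 CPM in controls. Values without control replicate 3 and without control replicate 1 are therefore given for the class medians and for most of the MHC genes described.

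Most MHC genes had lower levels in the INK128 libraries, in both classes, but only 1 of them passed the test. Of the 31 genes with a mean CPM above 1, 27 had a negative log2 fold change (INK128 minus control), with a median of −1.42, against −0.039 over the 17631 genes at this level, of which 9129 were negative. The filter takes part in these signs, since 7 of the 31 (H2-M2, H2-Q10, H2-T24, H2-DMb2, H2-Eb2, H2-Q1 and H2-Oa) passed only through the controls, with a mean at or below 1 CPM in INK128, and 0 passed only through INK128. Of the 20 genes with a mean CPM above 10, where Nlrc5 and H2-DMb1 exceeded that level only in controls, 17 had negative values and the median was −1.18. The counts and medians over genes that passed a filter are thus descriptions. In 22 of the 31 genes above 1 CPM both INK128 libraries lay below both controls, against 35.3% of all genes above 1 CPM. In 2 of the 31 both lay above, against 30.9%. The filter takes part in these counts as well. The test was edgeR's quasi-likelihood test across the 11758 genes whose mean CPM exceeded 10, and a gene was called at an adjusted p below 0.05 with a fold change above 1.5. Among the 20 of the 48 genes in that test, 1 was called lower, Cd74, against 3.19% of all tested genes, and 0 were called higher, against 3.18%. At an unadjusted p below 0.05, 11 of the 20 were lower and 1 was higher, against 18.7% and 17.7% of all tested genes. DESeq2 on the same genes called 13 lower and 1 higher, against 15.1% and 13.6%. The 13 were H2-K1, H2-D1, H2-T23, H2-Q6, H2-Q7, B2m, Nlrc5, H2-Aa, H2-Ab1, H2-Eb1, Cd74, H2-DMa and H2-DMb1. Of the 11 genes from 1 to 10 CPM, DESeq2 over genes with a mean CPM above 1 called Ciita, H2-M2, H2-Q5, H2-Q10 and H2-T24 lower and 0 higher, against 13.6% and 10.2% in that fit. By contrast, limma voom called 0 of all 11758 genes, with 8 of the 20 lower and 1 higher at an unadjusted p below 0.05, against 15.5% and 18.3%. At an adjusted p below 0.1, edgeR called 7 of the 20 lower and 1 higher, against 13.5% and 13.1%. With counts scaled by library totals, edgeR called 2 of the 20 lower and 0 higher, against 4.93% and 2.47%, and with offsets for transcript length it called 0 of all 11758 genes, with 11 of the 20 lower and 0 higher at an unadjusted p below 0.05, against 13.2% and 13.5%. The filter on low counts mattered as well. With a CPM above 10 required in all 4 libraries, 4 of 18 were called lower and 1 higher, against 7.14% and 8% of all genes tested that way. With at least 1 count, 15 of 40 were called lower and 1 higher, against 6.2% and 3.66%. With a mean CPM above 1, edgeR called 0 of the 31 and 0 of all 17631 genes, and 17 were lower and 1 was higher at an unadjusted p below 0.05, against 17.8% and 15.1%. The 20 and the 31 include H2-Ke6, which does not encode an MHC molecule and which was the gene counted as higher at an unadjusted p below 0.05 and in DESeq2. Without the 3 further H2- symbols, 19 and 30 genes remained, of which 11 of the 19 were lower and 0 higher at an unadjusted p below 0.05 in edgeR, and 13 lower and 0 higher in DESeq2. Log2 fold changes of single genes are given with their standard error (SE). In bulk tissue, fewer cells of a type and less RNA per cell cannot be told apart.

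The number of genes called rested on single libraries. Without control replicate 3, edgeR called 9 of the 20 lower and 2 higher (H2-Ke6 and H2-T22), against 21.4% and 21.2% of all tested genes. Without control replicate 1 the counts were 15 and 1, against 23.2% and 22.7%, and without either INK128 library 0 of the 11758 genes were called, with 1525 genes (without replicate 1) and 1338 genes (without replicate 2) at an unadjusted p below 0.05. In these fits the group with 1 library is assumed to vary like the other group. Control replicate 3 had the highest level of the 4 libraries in 27 of the 31 genes, against 31.9% of all genes at this level, and it exceeded control replicate 1 in 29 of 31, against 51.8%. The controls lay more than 2-fold apart in 15 of the 31 genes, against 20.9% of all genes, and the INK128 libraries in 3 of 31, against 2.23%.

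**Figure D1:**
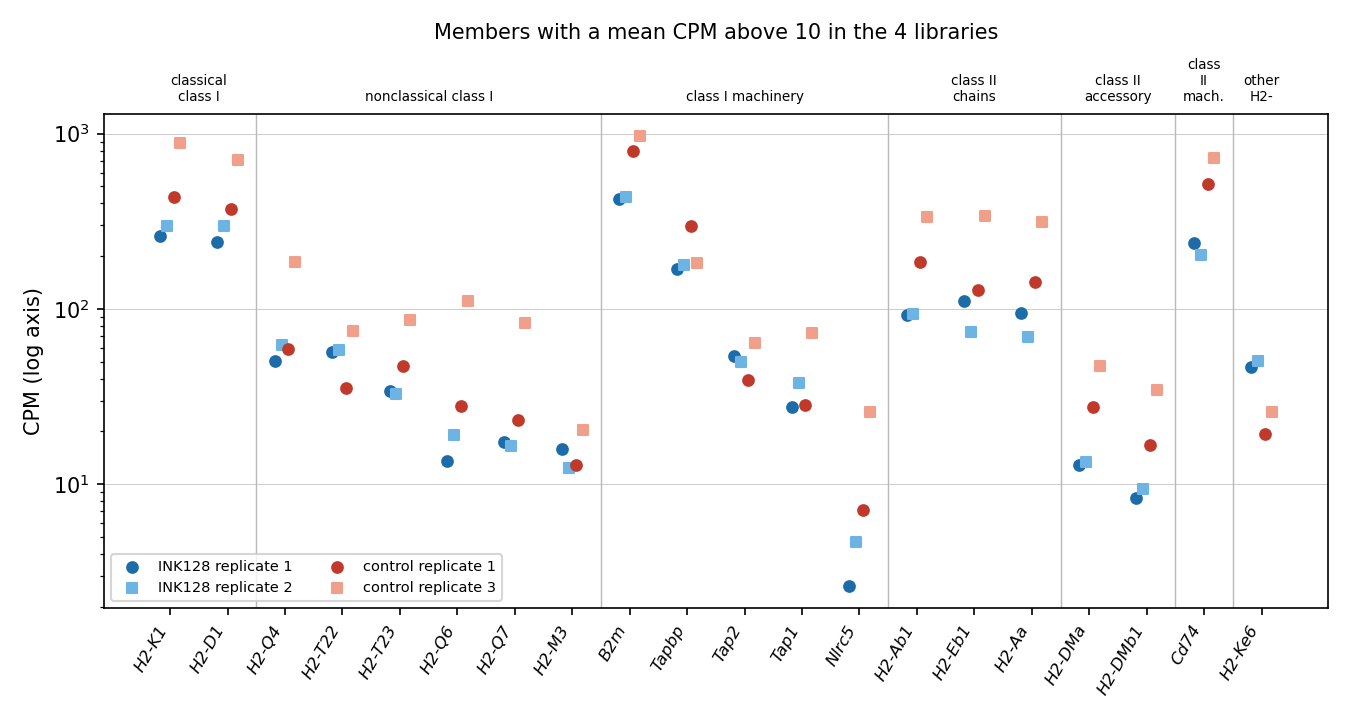
CPM (log axis) of the 20 genes with a mean CPM above 10, H2-Ke6 included, 1 point per library, grouped by class (mach., machinery). Both INK128 libraries lie below both controls for 14 of the 20 genes (34% of all tested genes) and above them for H2-Ke6, and control replicate 3 is the highest point for most genes.

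The 4 class II chains had both INK128 libraries below both controls, against 35.3% of all genes above 1 CPM. Their median log2 fold change was −1.43, and −0.84 without control replicate 3. H2-Ab1, the beta chain of I-A (chromosome 17, 34257689 to 34269419), had 92.2 and 92.9 CPM with INK128 and 185 and 335 CPM in controls. Its means were 92.6 ± 0.497 and 260 ± 106 CPM (SD, n = 2), and the log2 fold change of −1.49 (SE 0.33) had an adjusted p of 0.059 in edgeR. The gap between groups was thus larger than the spread within the INK128 group, while the controls themselves were far apart. H2-Aa, its alpha chain partner (34282744 to 34287823, minus strand), whose promoter letters are shown above, had 95 and 69.0 CPM with INK128 and 142 and 313 CPM in controls. The log2 fold change of H2-Aa was −1.47 (SE 0.44, edgeR adjusted p = 0.092). H2-Eb1, the beta chain of I-E (34305867 to 34316674), had 111 and 73.5 CPM against 129 and 341 CPM, so that INK128 replicate 1 and control replicate 1 were close together. With a log2 fold change of −1.35 (SE 0.53), H2-Eb1 did not pass the test (edgeR adjusted p = 0.145), while DESeq2 gave an adjusted p of 0.0364. The fold changes of all 3 became smaller without control replicate 3, at −1.0 for H2-Ab1, −0.79 for H2-Aa and −0.49 for H2-Eb1, and larger without control replicate 1, at −1.85, −1.93 and −1.89. C57BL/6 mice lack a working alpha chain of I-E, and that gene is among the names ending in -ps. H2-Eb2, a second beta chain gene, was scarce, with 1 and 9 counts against 32 and 52 counts.

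Cd74, the invariant chain that guides class II molecules to the endosomes, was the MHC gene that edgeR called. It had 239 and 202 CPM with INK128 and 519 and 725 CPM in controls, without overlap. The means were 220 ± 26.1 and 622 ± 146 CPM (SD, n = 2). Its log2 fold change of −1.50 (SE 0.25) had an adjusted p of 0.0482 in edgeR and of 2.36e-06 in DESeq2. Leaving out each library in turn moved the value between −1.72 and −1.24. It was −1.64 without INK128 replicate 1 and −1.39 without INK128 replicate 2. No gene at all was called in those fits, so they could not decide about the call of Cd74. The call was lost in limma voom (adjusted p = 0.0599) and in edgeR over genes with a mean CPM above 1 (adjusted p = 0.0561). It was also lost with offsets for transcript length (edgeR adjusted p = 0.0771). These alternatives, too, called no gene at all. Ciita, the coactivator of class II transcription (chromosome 16, 10480059 to 10528418), was counted at 2.04 and 2.67 CPM with INK128 and at 7.17 and 24.1 CPM in controls. Both INK128 libraries lay below both controls, and control replicate 3 exceeded control replicate 1 by 1.68 on the log2 scale. The log2 fold change of Ciita was −2.67 (SE 0.68, edgeR adjusted p = 0.0803 over genes with a mean CPM above 1), −1.55 without control replicate 3 and −3.29 without control replicate 1.

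Loading of class II molecules is catalysed by H2-DM, a pair of H2-DMa with H2-DMb1 or H2-DMb2, and H2-DM is held in check by H2-O, a pair of H2-Oa and H2-Ob. H2-DMa and H2-DMb1 gave like values. H2-DMa (chromosome 17, 34119541 to 34139101) had 12.8 and 13.3 CPM with INK128 and 27.6 and 47.4 CPM in controls, a log2 fold change of −1.52 (SE 0.33, edgeR adjusted p = 0.0581). H2-DMb1 (34153072 to 34160230) had 8.37 and 9.38 CPM against 16.7 and 34.5 CPM, a log2 fold change of −1.53 (SE 0.43, edgeR adjusted p = 0.0819). Without control replicate 3 these were −1.08 for H2-DMa and −0.91 for H2-DMb1, and without control replicate 1 they were −1.86 and −1.95. For both, the groups did not overlap, and the ratio of H2-DMa to H2-DMb1 stayed between 1.37 and 1.65 in the 4 libraries. H2-DMb2 had 0.161 and 1.01 CPM with INK128 and 1.95 and 5.78 CPM in controls. The value for H2-DMb2, −2.64 (SE 1.07, edgeR adjusted p = 0.166), was −1.63 without control replicate 3, −3.19 without control replicate 1, −1.88 without INK128 replicate 1 and −4.49 without INK128 replicate 2. Of the 50-base windows of its transcript 29.5% also occur in another gene, mostly H2-DMb1, as do 27.2% of those of H2-DMb1 itself. The inhibitor genes had low levels. H2-Oa had 0.859, 0.736, 0.930 and 1.52 CPM, in the order INK128 replicates 1 and 2 and control replicates 1 and 3, and a log2 fold change of −0.56 (edgeR adjusted p = 0.565) that was −0.17 without control replicate 3 and −0.88 without control replicate 1. H2-Ob had 8 and 6 counts with INK128 and 13 and 40 counts in controls. Of the exons of H2-DMa, 10.4% overlap Brd2, so some reads could belong to either gene.

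The classical class I heavy chains H2-K1 and H2-D1 present peptides to CD8 T cells. Both were lower in each INK128 library than in each control. H2-K1 (chromosome 17, 33996017 to 34000347, minus strand) had 261 and 298 CPM with INK128 and 433 and 887 CPM in controls, with means of 280 ± 26.3 and 660 ± 321 CPM (SD, n = 2). The log2 fold change of H2-K1 was −1.24 (SE 0.39, edgeR adjusted p = 0.0995), with an adjusted p of 0.0112 in DESeq2. H2-D1 (35262730 to 35267499) had 241 and 299 CPM against 374 and 704 CPM. The value for H2-D1, −1.0 (SE 0.36), did not pass the test (edgeR adjusted p = 0.126), while DESeq2 gave an adjusted p of 0.0345. Control replicate 3 exceeded control replicate 1 by 1.03 for H2-K1 and by 0.91 for H2-D1 on the log2 scale. Without it the log2 fold changes were −0.63 for H2-K1 and −0.47 for H2-D1, and without control replicate 1 they were −1.66 and −1.38. Both are near copies of other class I genes, and 8.1% of the 50-base windows of H2-K1 and 14.3% of those of H2-D1 occur in another gene, so their counts are less certain than those of the class II chains H2-Ab1 and H2-Eb1, which share none.

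B2m, the light chain of class I molecules (chromosome 2, 122147686 to 122153083), lay just beyond the threshold. It had 424 and 437 CPM with INK128 and 799 and 964 CPM in controls, with means of 430 ± 9.55 and 881 ± 116 CPM (SD, n = 2). Here the controls were close to each other as well. The log2 fold change of −1.03 (SE 0.19) had an adjusted p of 0.0507 in edgeR and of 1.68e-05 in DESeq2, and it was −0.89 without control replicate 3 and −1.16 without control replicate 1. With offsets for transcript length the value was −1.76 (edgeR adjusted p = 0.0738). Per kilobase of exon, B2m was the most abundant of the 48 genes in both groups, at 501 CPM per kb with INK128 and 1020 CPM per kb in controls, followed by Cd74 in controls (370 CPM per kb) and in the INK128 group (131 CPM per kb). The next levels were those of H2-K1, at 95.2 and 225 CPM per kb, and H2-D1, at 105 and 209 CPM per kb.

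The peptide pump and its partner gave smaller values than B2m. Tap1 had 27.4 and 37.7 CPM with INK128 and 28.2 and 73.2 CPM in controls, and Tap2 had 54.1 and 49.8 CPM against 39.3 and 63.5 CPM. For both the groups overlapped. Their log2 fold changes were −0.64 for Tap1 (SE 0.50, edgeR adjusted p = 0.395) and 0.015 for Tap2 (SE 0.28, edgeR adjusted p = 0.973). The sign for Tap2 depended on the scaling, with −0.10 under a scaling by library totals alone, a choice that moved the median over the tested genes from −0.03 to −0.15. Without control replicate 3 the values were 0.21 for Tap1 and 0.40 for Tap2, and without control replicate 1 they were −1.17 and −0.29. The summed CPM of Tap1 and Tap2 per summed CPM of H2-K1 and H2-D1 was 0.162 and 0.146 with INK128 and 0.0837 and 0.0859 in controls, a ratio in which the controls were alike. Tapbp, which holds empty class I molecules to the pump, had 169 and 177 CPM against 297 and 182 CPM. It was the only member of the class I machinery with its highest level in control replicate 1. The log2 fold change of Tapbp, −0.47 (SE 0.28, edgeR adjusted p = 0.29), was −0.072 without that library and −0.78 without control replicate 3. Of the exons of Tapbp, 29.0% overlap Gm19412 or Zbtb22, and of those of Tap2, 18.5% overlap Gm15821 or Gm20496. Gm19412 itself was called lower, with a log2 fold change of −1.63 (edgeR adjusted p = 0.0486).

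Nlrc5, the coactivator of class I transcription (chromosome 8, 94434356 to 94527272), had 2.63 and 4.65 CPM with INK128 and 7.13 and 25.9 CPM in controls. The groups did not overlap, but control replicate 3 was far above the rest. Its log2 fold change of −2.18 (SE 0.74, edgeR adjusted p = 0.113) was −0.96 without control replicate 3 and −2.82 without control replicate 1. The ratio of Ciita to Nlrc5 was 0.776 and 0.574 with INK128 and 1.01 and 0.930 in controls.

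**Figure D2:**
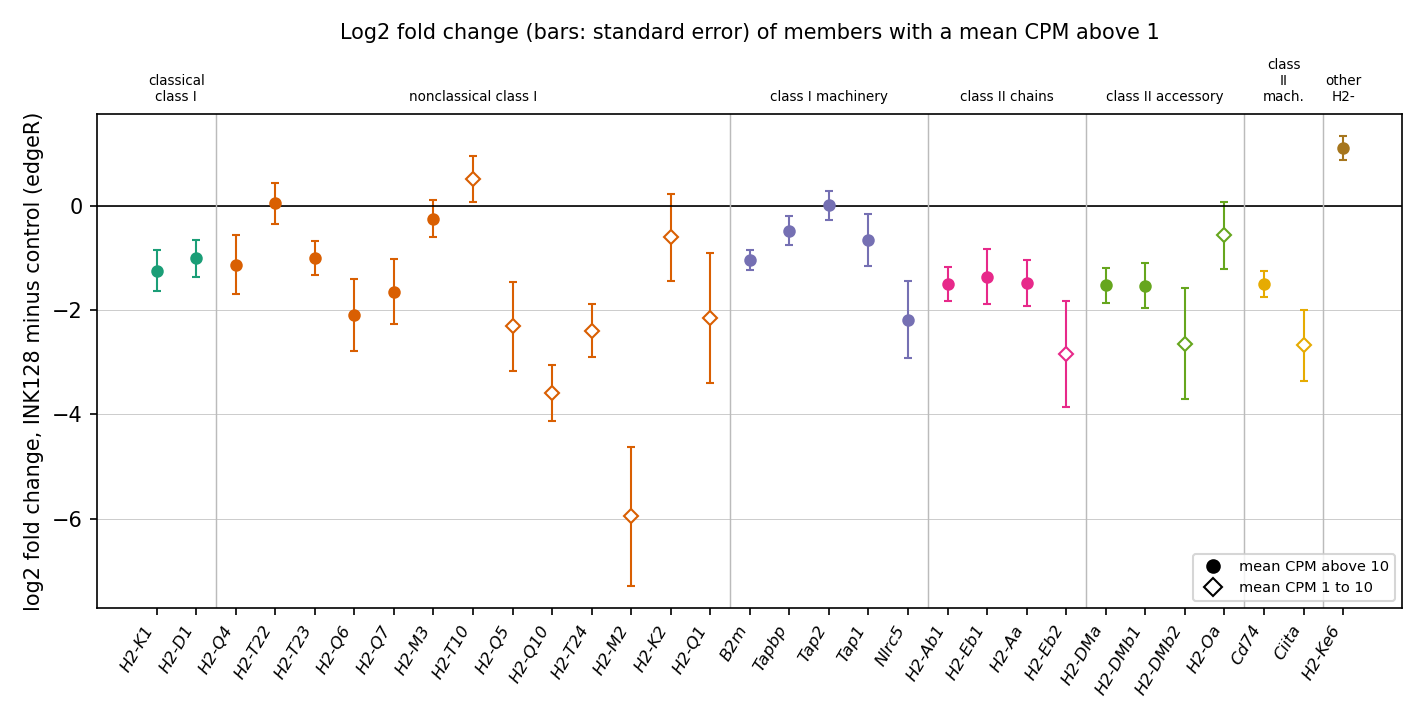
Log2 fold change (INK128 minus control, edgeR) with its standard error for the 31 genes with a mean CPM above 1, grouped by class (mach., machinery). Filled circles are genes with a mean CPM above 10, and open diamonds those from 1 to 10 CPM, fitted over all genes with a mean CPM above 1. The values run from −5.96 for H2-M2 to 1.11 for H2-Ke6, and the class II genes all lie below 0.

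The nonclassical class I genes were uneven. Of 27 genes, 6 had a mean CPM above 10, 7 lay between 1 and 10, and 14 were at or below 1, of which 7 had 0 counts in every library. For the 13 genes above 1 CPM the median log2 fold change was −1.59, with 11 below 0, but it was −1.06 for the 6 genes above 10 CPM and −0.45 for the 13 without control replicate 3. Both INK128 libraries lay below both controls in 7 of 13, against 35.3% of all genes above 1 CPM, and 4 of the 13 passed the filter only through the controls. H2-T23, which encodes Qa-1, a ligand of an inhibitory receptor of NK cells, had 34.1 and 32.7 CPM with INK128 and 47.2 and 86.5 CPM in controls. The groups did not overlap, and H2-T23 had a log2 fold change of −1.0 (SE 0.33, edgeR adjusted p = 0.111, DESeq2 adjusted p = 0.0429), which was −0.50 without control replicate 3 and −1.37 without control replicate 1. H2-Q7, which encodes Qa-2, had 17.4 and 16.6 CPM against 23.3 and 83.1 CPM, and the neighbouring H2-Q6 had 13.6 and 19 CPM against 28.0 and 111 CPM. Control replicate 3 exceeded control replicate 1 by 1.81 for H2-Q7 and by 1.97 for H2-Q6 on the log2 scale. Log2 fold changes were −1.64 for H2-Q7 (edgeR adjusted p = 0.14) and −2.09 for H2-Q6 (edgeR adjusted p = 0.112), and without control replicate 3 they were −0.45 and −0.77, and without control replicate 1 −2.29 and −2.76. H2-Q4 had 50.3 and 62.1 CPM against 59.2 and 185 CPM and overlapped between groups. Its log2 fold change was −1.12 in all libraries (edgeR adjusted p = 0.22), −0.074 without control replicate 3 and −1.72 without control replicate 1.

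H2-T22, which encodes a ligand of gamma delta T cells that binds no peptide, and its near copy H2-T10, a polymorphic pseudogene in the annotation of this strain, had log2 fold changes above 0, unlike the other heavy chain genes above 1 CPM, though the sign of H2-T22 turned without control replicate 1, and with library totals, where it moved by as much as the median of all tested genes (from −0.03 to −0.15). H2-T22 had 56.8 and 58.0 CPM with INK128 and 35.5 and 75.0 CPM in controls, a log2 fold change of 0.055 (SE 0.39, edgeR adjusted p = 0.927) that was −0.065 with library totals alone, −0.39 without control replicate 1 and 0.69 without control replicate 3. H2-T10 had 5.74 and 6.49 CPM against 3.28 and 5.57 CPM, and it was the only gene of the heavy chain classes above 1 CPM with both INK128 libraries above both controls. The 0.52 of H2-T10 did not pass the test (SE 0.44, edgeR adjusted p = 0.437) and was 0.95 without control replicate 3 and 0.19 without control replicate 1. These genes share sequence, since 32.0% of the windows of H2-T22 also occur in H2-T10. H2-M3, which presents N-formylated peptides, had 15.8 and 12.3 CPM against 12.8 and 20.4 CPM. The log2 value for H2-M3, −0.24 (edgeR adjusted p = 0.638), was 0.14 without control replicate 3 and −0.54 without control replicate 1.

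Among the scarcer nonclassical genes, H2-M2, H2-Q10 and H2-T24 had the lowest log2 fold changes in all 4 libraries. H2-Q5, at −2.31, and H2-Q1, at −2.15, lay close to H2-T24 and were lower than it without control replicate 1 (−3.0 and −2.88). H2-Q10, a secreted class I molecule made mainly by the liver, had 0.537 and 0.598 CPM with INK128 and 9.03 and 5.27 CPM in controls. The log2 value for H2-Q10, −3.59 (SE 0.54, edgeR adjusted p = 0.0555 in the fit over genes with a mean CPM above 1), was −3.92 without control replicate 3 and −3.15 without control replicate 1. Here control replicate 1 was the higher one. H2-T24 had 0.805 and 0.782 CPM against 3.72 and 4.93 CPM, with controls close together, and a log2 fold change of −2.39 (SE 0.51, edgeR adjusted p = 0.0652), −2.17 without control replicate 3 and −2.58 without control replicate 1. H2-M2 had 1 and 1 counts with INK128 and 22 and 146 counts in controls, and the control level was 73.2 times the INK128 level, with a 95% counting interval of 20 to 610. This interval leaves out the spread between libraries, and in edgeR H2-M2 did not pass the test, at −5.96 on the log2 scale (SE 1.33, edgeR adjusted p = 0.0673, DESeq2 adjusted p = 0.0015), −4.09 without control replicate 3 and −6.75 without control replicate 1. H2-Q5 had 1.13 and 2.16 CPM against 3.19 and 13.8 CPM, H2-K2 had 0.483 and 1.93 CPM against 1.46 and 2.36 CPM, and H2-Q1 had 0.698 and 0.092 CPM against 0.664 and 2.95 CPM. Only H2-Q5 of these did not overlap between groups. Between 15% and 35.8% of the windows of H2-T23, H2-Q1, H2-Q10, H2-Q4, H2-Q7, H2-T10, H2-Q6, H2-Q5 and H2-T22 occur in another gene, so reads may have been divided or dropped. Exons of H2-Q4, H2-T22 and H2-T10 also overlap other counted genes by 19.1%, 29.4% and 27.1%. Of the genes at or below 1 CPM, H2-Ob and H2-M5 had at least 1 count in every library, and H2-M5 had 2 and 3 counts with INK128 and 9 and 21 counts in controls.

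H2-Ke6 lies between the class I and class II genes (chromosome 17, 34026033 to 34028060, minus strand) but encodes Hsd17b8, a hydroxysteroid dehydrogenase. It was the only gene of the 20 with both INK128 libraries above both controls, against 34.5% of all tested genes. Its level was 46.6 and 50.1 CPM with INK128 and 19.2 and 25.7 CPM in controls, with means of 48.4 ± 2.44 and 22.4 ± 4.57 CPM (SD, n = 2). The log2 fold change of 1.11 (SE 0.23, edgeR adjusted p = 0.0553) passed in DESeq2 (adjusted p = 0.00259) and was 0.53 with offsets for transcript length (edgeR adjusted p = 0.264). Of its transcript windows 96.3% are shared with the overlapping Gm20427, which had 340 and 273 CPM against 138 and 196 CPM, so the reads of these genes cannot be told apart. The other further H2- symbols were H2-Pa, with 12 and 5 counts with INK128 and 3 and 0 counts in controls, and H2-Pb, which had 0 counts in every library.

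In the summed CPM of each of the 6 classes, both INK128 libraries lay below both controls. The class II chains summed to 298 and 236 CPM with INK128 and to 458 and 991 CPM in controls, and the classical class I genes to 503 and 597 CPM against 807 and 1590 CPM. For the nonclassical genes the sums were 198 and 213 CPM against 230 and 606 CPM, so that control replicate 1 was close to the INK128 libraries. Summed H2-Aa, H2-Ab1 and H2-Eb1 per summed H2-K1 and H2-D1 gave 0.593 and 0.394 with INK128 and 0.566 and 0.622 in controls, and on this scale class II against class I overlapped between groups. Median log2 fold changes of the classes, from the fit over genes with mean CPM above 1 and so slightly unlike the single values above, were recomputed with each library left out. They remained below 0 in every case, but without control replicate 3 they were −0.49 for classical class I, −0.45 for nonclassical class I, −0.84 for the class II chains, −0.94 for the accessory chains and −1.37 for the class II machinery. The class I machinery median was −0.72 without that library and −0.59 with all 4. Without control replicate 1 the medians were, in the same order of classes, −1.47, −2.23, −1.86, −1.86 and −2.48, and −1.11 for the class I machinery.

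**Figure D3:**
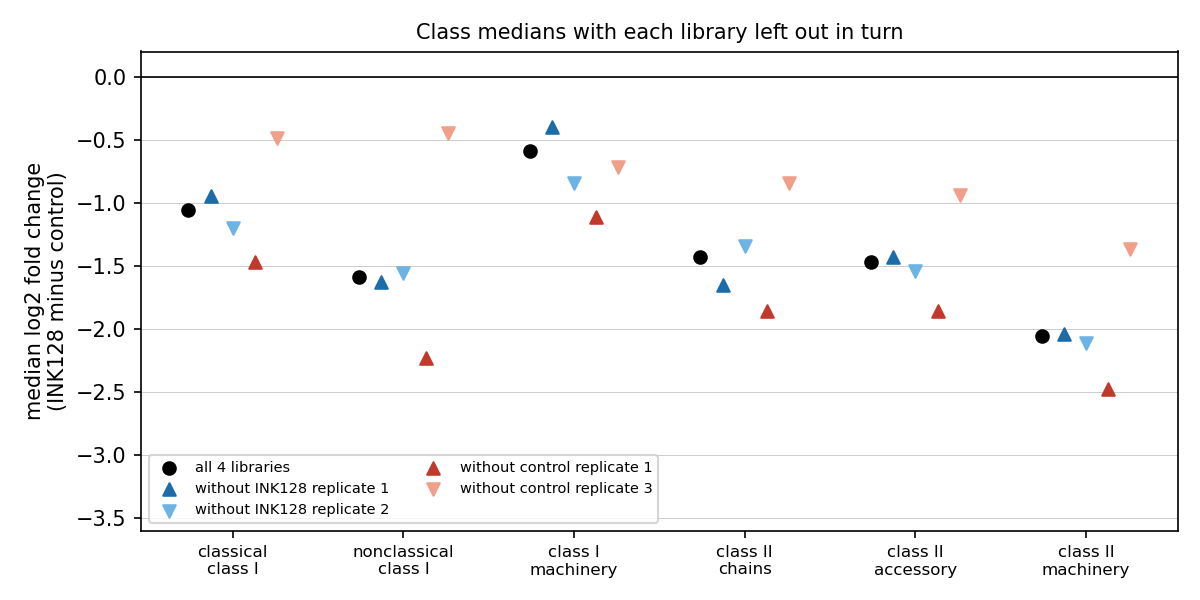
Median log2 fold change of each class with all 4 libraries and with each library left out in turn. Every median lies below 0, and leaving out control replicate 3 brings the nonclassical class I median from −1.59 to −0.45 and the class II chain median from −1.43 to −0.84.

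Most markers of immune cells also had lower levels with INK128, but edgeR called none of them. The 16 markers of haematopoietic and antigen presenting cells summed to 240 and 235 CPM with INK128 and to 373 and 565 CPM in controls. Of the 15 above 1 CPM, 13 had a negative log2 fold change, with a median of −1.0. Of these 15, 4 (Flt3, Xcr1, Cd209a and Cd79b) passed only through the controls and 0 only through INK128. Against 3.19% of all tested genes, edgeR called 0 of the 7 tested. At an unadjusted p below 0.05, 4 were lower (against 18.7%), and DESeq2 called 5 lower (against 15.1%). Of the 7, Ptprc, Itgam and Adgre1 exceeded 10 CPM only in controls. The exceptions in sign were Clec9a at 0.56 and Ms4a1 at 0.057, and Cd68, a macrophage marker, overlapped between groups, with 8.05 and 14.4 CPM against 15.8 and 14.3 CPM. Csf1r, the receptor of the macrophage growth factor, had 58.3 and 41.9 CPM against 95.9 and 105 CPM, and Adgre1, which encodes F4/80 of macrophages, had 5.80 and 8.79 CPM against 16.8 and 31.2 CPM. Markers of B cells were low, as for Cd79a, with 19 and 19 counts against 8 and 34 counts. Ms4a1 had 2.47 and 0.966 CPM against 1.86 and 1.56 CPM. Markers of T and NK cells summed to 6.01 and 6.39 CPM against 10.5 and 39.4 CPM. All 6 above 1 CPM had negative log2 fold changes, but 4 of them (Cd3e, Cd4, Cd8a and Klrb1c) passed only through the controls. Endothelial markers summed to 445 and 486 CPM against 582 and 797 CPM, and 7 of the 9 had log2 values below 0, with a median of −0.26. Of the 8 in the test, 2 were called lower, against 3.19%, Kdr at −1.54 and Lyve1 at −4.19 (edgeR adjusted p = 0.0464 for each). Lyve1 exceeded 10 CPM only in controls. Emcn, at 0.56, had both INK128 libraries above both controls. Per summed CPM of the haematopoietic markers, H2-Aa, H2-Ab1 and H2-Eb1 gave 1.24 and 1 with INK128 and 1.23 and 1.75 in controls, and H2-K1 and H2-D1 gave 2.10 and 2.55 against 2.16 and 2.81. Both ratios overlapped between groups. The 14 kidney markers, summed above, had a median log2 fold change of −3.15, with 13 below 0, and 2 of them passed only through the controls. Of the 11 in the test, edgeR called 5 lower and 0 higher, against 3.19% and 3.18%. Among these 11, 6 exceeded 10 CPM only in controls. The part of these cell types, and of the kidney, in the MHC levels was not tested.

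**Figure D4:**
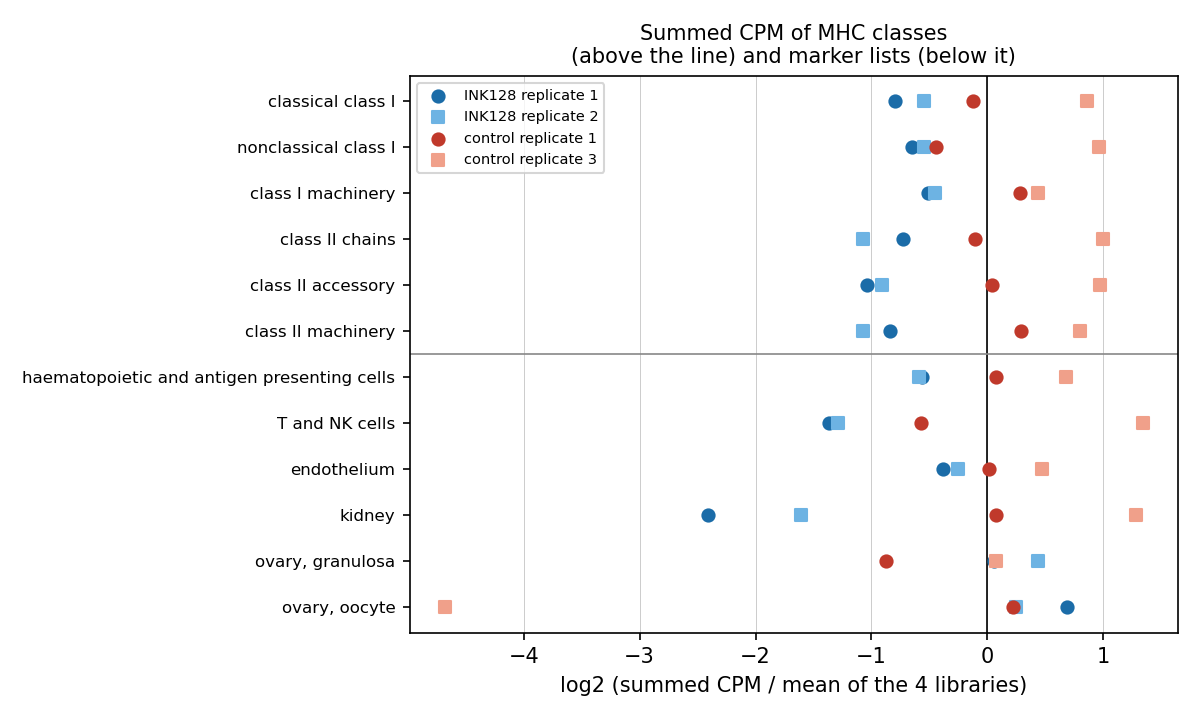
Summed CPM of each MHC class and of each marker list in the 4 libraries, as the log2 ratio to the mean of the 4 libraries. Control replicate 3 is highest for the 6 MHC classes and for the haematopoietic, T and NK cell, endothelial and kidney markers, and lowest for the oocyte markers, at 25.4 CPM.

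Genes that act around the MHC were taken from written lists. Of the 13 genes of class I loading and peptide supply, edgeR called 0, against 3.19% of all tested genes lower and 3.18% higher. At an unadjusted p below 0.05, 0 were lower and 2 higher, against 18.7% and 17.7%, and DESeq2 called 2 higher (against 13.6%). Their median log2 fold change was −0.0077, with 7 of 13 below 0, and 0.045 in the fit over genes with mean CPM above 1. The highest was Psme2, a subunit of the proteasome activator, with 112 and 91.5 CPM with INK128 and 54.8 and 61.3 CPM in controls and a log2 fold change of 0.81 (edgeR adjusted p = 0.0629). The lowest was Lnpep, a peptide trimming enzyme, with 88.5 and 73.4 CPM against 90.1 and 187 CPM and a log2 fold change of −0.78 (edgeR adjusted p = 0.217). Of the 10 genes of class II processing, 8 were in the table under these names, 1 was called lower and 0 higher, against 3.19% and 3.18%. This was Lgmn, an endosomal protease, with 90.2 and 108 CPM against 308 and 294 CPM, which fell by 1.60 on the log2 scale (SE 0.19, edgeR adjusted p = 0.0464). Unlike most MHC genes, Lgmn had alike levels in both controls. Ctss, the protease that trims Cd74, had 41.7 and 33.0 CPM against 63.0 and 90.3 CPM, a log2 fold change of −1.04 (edgeR adjusted p = 0.0701). Cd63, a membrane protein of late endosomes, was the highest of the list at 0.89 (edgeR adjusted p = 0.0611).

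Of the transcription factors of MHC genes, 11 are reported here, of which edgeR called 0, against 3.19% of all tested genes lower and 3.18% higher. At an unadjusted p below 0.05, 2 of them were lower and 0 higher, against 18.7% and 17.7% of all tested genes, and DESeq2 called 1 lower, against 15.1%. Irf8, a factor of macrophages and dendritic cells, was the lowest of these, with 10.7 and 11.2 CPM with INK128 and 16.3 and 26.3 CPM in controls and a log2 value of −0.96 (SE 0.33, edgeR adjusted p = 0.118). The factors of the X and Y boxes gave values of both signs, with Rfxap highest of those reported at 0.51 (edgeR adjusted p = 0.153), Rfx5 at −0.16, Nfya at −0.44, Nfyb at 0.068, Nfyc at 0.14 and Creb1 at −0.78 (edgeR adjusted p = 0.069). In the interferon gamma arm, edgeR called 0 of 9 tested genes (against 3.19% lower and 3.18% higher of all tested genes), with 4 lower at an unadjusted p below 0.05 (against 18.7%) and 3 lower in DESeq2 (against 15.1%). Igtp, an interferon induced GTPase, was lowest, with 16.6 and 18.4 CPM against 36.9 and 66.0 CPM and a log2 fold change of −1.55 (edgeR adjusted p = 0.0585), and the receptor gene Ifngr1 was highest at 0.42 (edgeR adjusted p = 0.29). Ifng itself had 1 and 6 counts against 2 and 15 counts.

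Class I-like proteins encoded outside the MHC also pair with B2m in several cases. Of 9 such genes 7 had a mean CPM above 1, and 1 of the 5 in the test was called higher and 0 lower, against 3.18% and 3.19%. Fcgrt, the B2m-binding receptor that recycles antibodies, had 250 and 267 CPM with INK128 and 120 and 137 CPM in controls, and it rose by 1.01 on the log2 scale (SE 0.18, edgeR adjusted p = 0.0492). Ulbp1, a stress ligand of NK cells, was the lowest at −1.73 (edgeR adjusted p = 0.0733). On the T cell side, none of the 11 genes reached the test and 10 had a mean CPM above 1, with a median log2 fold change of −1.40. Of these 10, 4 (Cd4, Cd8a, Cd3e and Cd28) passed only through the controls and 0 only through INK128. Values ran from −3.38 for Cd4, the coreceptor for class II, to 0.13 for Cd80, a costimulatory ligand, and edgeR over genes with a mean CPM above 1 called 0 of the 10, as of all 17631 genes, with 4 lower at an unadjusted p below 0.05, against 17.8%.

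**Figure D5:**
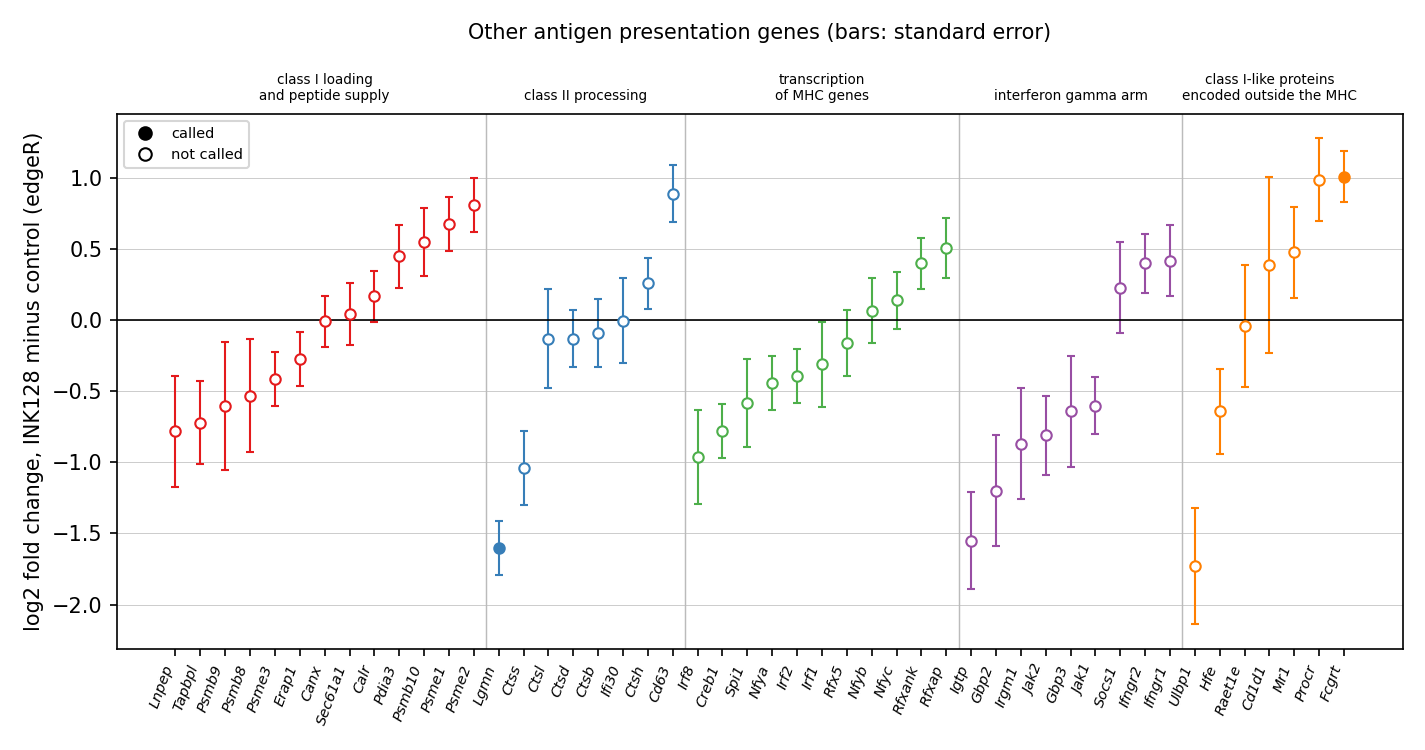
Log2 fold change (INK128 minus control, edgeR) with its standard error for other antigen presentation genes, sorted within 5 lists. Filled points are the called genes, Lgmn (−1.60) and Fcgrt (1.01), and open points are genes that were not called.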

How the data were processed

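RNA-seq of 2 INK128 and 2 control rOvary libraries was used. According to the study's methods, the NEBNext Ultra kit was used for the libraries, and reads were trimmed with Trimmomatic, aligned to mm10 with Hisat2 and counted with featureCounts on an annotation named RefGene. Versions and the strand setting are not given in the sources used here. The values that the authors deposited are raw counts of reads for each gene symbol, neither normalized nor pooled, and each column was matched to a library by its name. CPM used TMM factors (edgeR 4.0.16, R 4.3.3). Groups were compared by the quasi-likelihood F-test of edgeR, with p-values adjusted after Benjamini and Hochberg across the 11758 genes whose mean CPM exceeded 10. Genes from 1 to 10 CPM were read from the same fit run on the 17631 genes whose mean CPM exceeded 1. The study's thresholds were kept (CPM above 10, adjusted p below 0.05, fold change above 1.5). The standard error (SE) is the log2 fold change divided by the square root of F. A two-sided exact permutation test of 1 gene cannot go below 0.333 with 2 libraries a group. The fits were also run on simulated data with known changes and the same spread in both groups. The controls here were further apart than the INK128 libraries, so those runs do not bear on the differences between fits.

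The members and lists were chosen with earlier results of these data known. Every H2- gene with a mean CPM above 1 is named, those at or below 1 are counted, and of each pathway list the called genes and the extremes are named, with a few further genes chosen for their role after their values were seen. Of the marker and pathway lists, 2 genes are not reported here and were left out of the counts and sums of their lists. Positions, exon lengths and overlaps came from GENCODE mouse release 21, in which all 48 genes were found. Shared sequence was measured as 50-base windows of the longest transcript that occur in a transcript of another gene. Promoters came from RefSeq. Marchf1 and Marchf8 were not found under these names. The table also holds symbols that read as dates, and whether any of these stand for the missing genes was not tested. Alternatives were DESeq2 1.42.0, limma 3.58.1 (voom), other size factors, filters, thresholds, offsets for transcript length, and leaving out each library in turn.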

Additional observations from a re-analysis of the deposited data

How the results depend on the processing

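No paired analysis was possible because the groups share only replicate number 1. Of the 48 genes, 1 was called lower with edgeR (against 3.19% of all tested genes) and 13 with DESeq2 (15.1%). In edgeR the number was 2 with library totals (4.93%) and 7 at an adjusted p below 0.1 (13.5%). It was 4 with a CPM above 10 in all 4 libraries (7.14%) and 15 with at least 1 count (6.2%). Limma voom, edgeR with a mean CPM above 1 and offsets for transcript length gave 0, as for all genes tested. The number called higher was 0 with edgeR (3.18%) and 1 with DESeq2 (13.6%). In edgeR it was 1 with a CPM above 10 in all 4 libraries (8%), with at least 1 count (3.66%) and at an adjusted p below 0.1 (13.1%). Counts with each library left out stand above, beside the shares of all tested genes. With each library left out, class medians ran from −1.47 to −0.49 for classical class I, −2.23 to −0.45 for nonclassical class I, −1.11 to −0.40 for class I machinery, −1.86 to −0.84 for class II chains, −1.86 to −0.94 for accessory chains and −2.48 to −1.37 for class II machinery. Under every other alternative each class median moved by less than the spread between replicates. The sign turned for Tap2 with library totals (−0.10), a CPM above 10 in all libraries (−0.0017), transcript length offsets (−0.058), without INK128 replicate 1 (−0.056) and without control replicate 1 (−0.29). It also turned for H2-T22 with library totals (−0.065), length offsets (−0.086) and without control replicate 1 (−0.39), for H2-K2 without INK128 replicate 1 (0.058), and without control replicate 3 for H2-M3 (0.14) and Tap1 (0.21). With each library left out these genes ran from −0.29 to 0.40 (Tap2), −0.39 to 0.69 (H2-T22), −1.93 to 0.058 (H2-K2), −0.54 to 0.14 (H2-M3) and −1.17 to 0.21 (Tap1). The cause was not tested. With 2 libraries a group and controls that differ from each other, a fold change near the control spread could not be resolved, and genes at or below 1 CPM were limited by counting.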
